A study of Mus musculus with 12 samples.

Results

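The 10 genes described here encode transcription factors that direct blood progenitors into the red cell, platelet, mast cell, granulocyte and monocyte lineages: Gata1, Klf1, Tal1, Gfi1b, Gata2, Runx1, Spi1, Cebpa, Cebpe and Gfi1. They were listed by name as textbook regulators of these lineages, with earlier results of these data known, and they are 10 of the 54532 mouse genes counted. All 10 were among the 15003 genes with enough reads to be tested. Transcripts were measured by bulk RNA sequencing in Lin-cKit+ cells, the haematopoietic stem and progenitor fraction, sorted from fresh mouse bone marrow and never cultured. There were 4 groups of 3 libraries. RH MET and RH VEH cells came from Dnmt3afl-R878H/+ mice crossed with Mx1-cre mice, with metformin (MET) or vehicle (VEH) as the treatment. WT MET and WT VEH cells came from Dnmt3a+/+ mice crossed with the same Mx1-cre line and were given the same treatments. R878H is a point change in the DNA methyltransferase gene Dnmt3a, carried here on 1 allele, and metformin is an antidiabetic drug whose targets include complex I of the respiratory chain. All 4 groups share the C57BL/6 background and the Mx1-cre transgene, whose promoter answers to interferon and is active in many cell types besides blood. Treatment lasted 1 month in a competition experiment in the animal. Each treatment group had 2 animals, per the labels, which do not say which animal gave which library. The p-values below therefore reflect variation among libraries, some of it possibly technical. The sources used here do not give the metformin dose or the induction of the mutant allele.

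Lineage factors bind DNA in combinations and act on each other's genes. In the erythroid and megakaryocyte branch, GATA1 works in a complex with TAL1, and KLF1 adds the red cell programme. In the myeloid branch, PU.1 (the product of Spi1) opens the programme, C/EBP-alpha commits cells to it, and C/EBP-epsilon drives the late granule proteins. GATA1 and PU.1 are a textbook antagonist pair, as each binds and restrains the other. GATA2 acts in stem and mast cells and gives way to GATA1 as red cells mature, RUNX1 acts across stem, megakaryocyte and myeloid cells, and the repressors GFI1 and GFI1B are paralogues used mainly on the myeloid and the erythroid side.

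Promoter sequences are shown for 4 of the factors: Gfi1b and Gata1, whose levels ran together across the 12 libraries, and Cebpa and Gfi1, which ran opposite to them. Each window spans 250 bases before to 50 bases after a transcription start in the RefSeq promoter table (build GRCm38.p6), read 5′ to 3′ on the strand of the gene. Of the 10 factors, 8 had 12 windows in that table, and those without an entry were Spi1 and Cebpe. The capitals mark matches, on either strand, to the letters AGATAA or TGATAA (bound by GATA factors), GAGGAA (PU.1), TGTGGT (RUNX1), TTGCGNAA (C/EBP) or AATCAC (GFI1 and GFI1B). AGATAA and TGATAA share their last bases but were counted apart.
Gfi1b, chr2:28621933-28622232, minus strand: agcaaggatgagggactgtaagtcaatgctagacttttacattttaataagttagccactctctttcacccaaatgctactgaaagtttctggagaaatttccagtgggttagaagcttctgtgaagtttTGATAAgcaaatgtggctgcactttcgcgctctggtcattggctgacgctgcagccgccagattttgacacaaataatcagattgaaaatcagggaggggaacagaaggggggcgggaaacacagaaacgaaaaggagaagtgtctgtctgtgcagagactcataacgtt
Gata1, chrX:7967861-7968160, minus strand: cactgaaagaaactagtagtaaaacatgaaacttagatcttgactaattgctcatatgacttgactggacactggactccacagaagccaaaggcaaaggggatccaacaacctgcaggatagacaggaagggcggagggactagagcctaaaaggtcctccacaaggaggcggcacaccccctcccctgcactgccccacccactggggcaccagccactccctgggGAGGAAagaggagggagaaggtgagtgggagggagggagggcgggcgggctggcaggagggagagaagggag
Cebpa, chr7:35119043-35119342, plus strand: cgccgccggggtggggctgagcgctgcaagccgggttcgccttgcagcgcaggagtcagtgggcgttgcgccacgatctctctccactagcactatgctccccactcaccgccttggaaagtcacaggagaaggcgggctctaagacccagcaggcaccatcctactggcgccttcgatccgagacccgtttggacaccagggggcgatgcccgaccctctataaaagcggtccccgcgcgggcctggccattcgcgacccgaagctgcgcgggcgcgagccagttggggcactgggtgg
Gfi1, chr5:107725756-107726055, minus strand: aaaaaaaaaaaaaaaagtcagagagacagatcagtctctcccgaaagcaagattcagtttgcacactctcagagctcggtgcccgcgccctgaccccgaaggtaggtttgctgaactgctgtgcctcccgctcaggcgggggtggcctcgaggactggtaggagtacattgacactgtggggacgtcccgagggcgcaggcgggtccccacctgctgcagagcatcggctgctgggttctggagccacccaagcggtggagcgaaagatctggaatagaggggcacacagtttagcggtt

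The Gfi1b window held a single TGATAA, which began at position -120 from the start, and the Gata1 window held a single GAGGAA at position -22. The Cebpa and Gfi1 windows held none of these letter strings. Such matches are common. Of all 32851 promoters in the table, 18.6% held AGATAA or TGATAA, 28.3% held GAGGAA, 16.8% held TGTGGT, 10.4% held AATCAC and 0.798% held TTGCGNAA. A match is a description of the letters and not a measured binding site. The Cebpa window was the richest in G and C, at 67.3%, against 44.3% in the Gfi1b window, 57.3% in the Gata1 window and 58.0% in the Gfi1 window.

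Library totals ran from 13359583 to 21938003 counts. The receptor Kit, which the sort selected on, stood at 118 to 200 CPM (read counts scaled to each library's effective size) in every library, and the mature T cell gene Cd3e stood at 0.378 to 3.08 CPM. Dnmt3a itself stood at 39.7 to 60.0 CPM, a level that does not check a heterozygous point change. A pair of libraries stood apart. Mitochondrial transcripts made up 33.3% of the counts of WT MET 2 and 40.8% of those of RH VEH 2, whereas the remaining 10 libraries ranged from 1.57% to 4.32%. These 2 libraries also had the fewest reads per CPM, 9.86 for WT MET 2 and 8.37 for RH VEH 2, while the rest had 17.0 to 24.8. The deposited data also fall into rounds. The 6 libraries that appear only in the larger of the 2 deposited tables are called round 2 (WT MET 2, RH VEH 2 and replicate 3 of each group). The 6 that appear unchanged in both tables are called round 1 (replicate 1 of each group, RH MET 2 and WT VEH 2). Both rounds hold all 4 groups.

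Set side by side per length, the erythroid factors were the most abundant, and Gfi1, Runx1 and Cebpe were at the low end. As a mean over 12 libraries, in CPM per kilobase of gene length, Klf1 led with 203, followed by Gata1 with 114, Gfi1b with 95.5, Tal1 with 73.5 and Gata2 with 39.1. Below them came Cebpa with 22.2, Spi1 with 19.6, Cebpe with 11.02, Runx1 with 7.31 and Gfi1 with 4.63. The place of Runx1 depends on the length used, 12025 bases over 7 annotated transcripts, against 1241 to 5398 bases for the other factors. In CPM without division by length, Runx1 averaged 87.9, above Cebpa at 58.6, Spi1 at 52.7 and Cebpe at 13.7. Several neighbours in this order could not be separated by their spread. Gfi1b was above Tal1 in 10 of 12 libraries, Cebpa above Spi1 in only 7 of 12 and Cebpe above Runx1 in 8 of 12. Runx1 was above Gfi1 in 11 of 12 libraries. The other 5 neighbouring pairs kept their order in 12 of 12. The same order does not describe how much a factor varied. Between its lowest and highest library, Tal1 differed 1.37-fold, Runx1 1.43-fold, Klf1 1.63-fold, Gata1 1.85-fold and Gfi1b 1.98-fold. Gata2 differed 2.35-fold, Cebpa 2.69-fold, Spi1 3.06-fold, Gfi1 3.12-fold and Cebpe 4.01-fold.

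**Figure D1:**
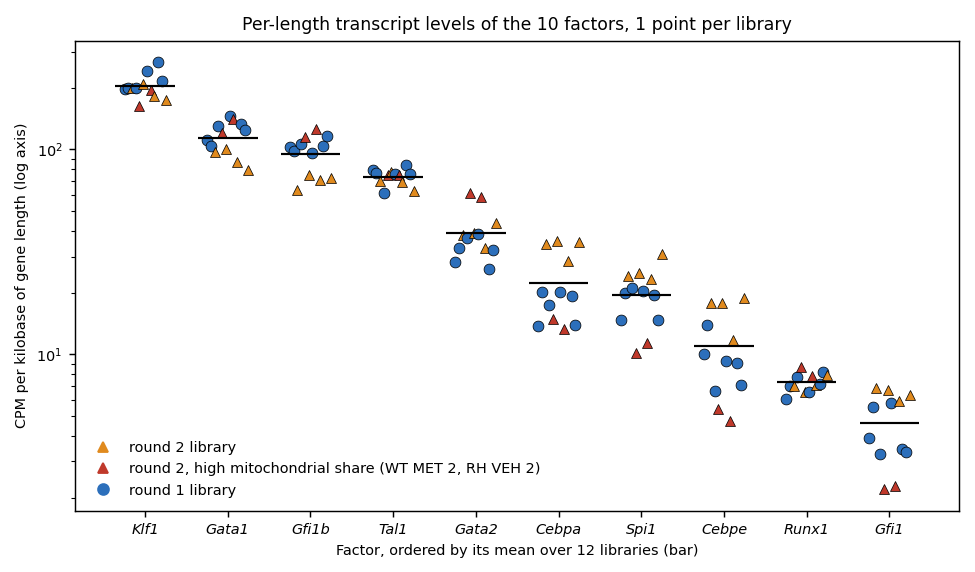
Level of each factor in CPM per kilobase of gene length on a log axis, with 1 point per library and a bar at the mean of 12 libraries. Klf1 is at the top with a mean of 203 and Gfi1 at the bottom with 4.63; the points of Tal1 and Runx1 lie close together, and those of Cebpe and Gfi1 spread over 4.01-fold and 3.12-fold.

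Gata1 (chrX:7959260-7978071, minus strand, mm10) encodes the zinc finger factor on which red cell and platelet formation depend. It stood at 269.6, 252 and 238 CPM in RH MET, at 317, 292 and 245.5 CPM in WT MET, at 355.5, 341 and 211 CPM in RH VEH, and at 325, 302 and 192.5 CPM in WT VEH. Replicate 3, a round 2 library in every group, was the lowest of each group, and the 3 RH MET libraries lay inside the range of RH VEH. Because these are bulk libraries, fewer cells of a lineage and less transcript per cell cannot be told apart, here and for every factor below.

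Gfi1b (chr2:28609450-28621982, minus strand), the erythroid and megakaryocyte repressor, had 188, 179.5 and 116 CPM in RH MET and 194, 211 and 138 CPM in WT MET. It had 176, 230.0 and 129 CPM in RH VEH and 191, 212 and 132 CPM in WT VEH. In each group replicate 3 was the lowest, and these 4 libraries (116 to 138 CPM) lay below the other 8 (176 to 230.0 CPM).

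Klf1 (chr8:84901928-84905291, plus strand), which switches on adult globin, blood group and red cell membrane genes, averaged 304 ± 2.00 CPM (RH MET), 291.5 ± 36.1 (WT MET), 314 ± 47.1 (RH VEH) and 335 ± 70.2 (WT VEH) (SD, n = 3 each). Its 3 RH MET libraries lay within 302 to 306 CPM, while WT VEH ran from 268 to 408 CPM. Tal1 (chr4:115056426-115071755, plus strand), the basic helix-loop-helix partner of GATA1 that stem cells also need, averaged 329.8 ± 21.4 CPM (RH MET), 312 ± 37.6 (WT MET), 322 ± 14.7 (RH VEH) and 324 ± 46.1 (WT VEH) (SD, n = 3 each). Tal1 was the steadiest of the 10 factors, and its groups overlapped throughout.

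Gata2 (chr6:88193891-88207032, plus strand), needed for stem cell maintenance and mast cells, had 152, 179 and 206 CPM in RH MET and 199, 330.5 and 212 CPM in WT MET. It had 208.5, 315 and 179 CPM in RH VEH and 141, 174 and 237 CPM in WT VEH. Its highest values, 330.5 and 315 CPM, were those of WT MET 2 and RH VEH 2, the libraries of high mitochondrial share; the other 10 lay between 141 and 237 CPM. Runx1 (chr16:92601466-92826149, minus strand), the DNA-binding subunit of core binding factor, ran only from 72.6 to 104 CPM. It averaged 80.3 ± 6.64 CPM (RH MET), 92.0 ± 12.7 (WT MET), 86.2 ± 7.65 (RH VEH) and 93.2 ± 6.55 (WT VEH) (SD, n = 3 each).

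Spi1 (chr2:91082390-91115756, plus strand), which encodes PU.1, had 39.5, 53.5 and 64.8 CPM in RH MET and 56.8, 27.2 and 67.4 CPM in WT MET. It had 55.1, 30.6 and 62.5 CPM in RH VEH and 52.7, 39.5 and 83.2 CPM in WT VEH. Replicate 3 was again at the edge of each group, this time as the highest, and WT MET 2 and RH VEH 2 held the lowest values of all.

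Cebpa (chr7:35119293-35121928, plus strand), the factor of granulocyte and monocyte commitment, had 36.4, 53.2 and 90.8 CPM in RH MET and 45.7, 39.1 and 94.1 CPM in WT MET. It had 52.8, 35.0 and 75.3 CPM in RH VEH and 50.9, 36.7 and 93.0 CPM in WT VEH. The 4 libraries numbered 3 (75.3 to 94.1 CPM) lay above the other 8 (35.0 to 53.2 CPM), the reverse of Gfi1b.

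Cebpe (chr14:54710360-54712174, minus strand), which drives secondary granule genes in maturing neutrophils, had 12.4, 17.3 and 22.0 CPM in RH MET and 8.26, 6.70 and 22.0 CPM in WT MET. It had 11.5, 5.86 and 14.5 CPM in RH VEH and 11.3, 8.83 and 23.5 CPM in WT VEH. Its lowest value rested on 49 counts in RH VEH 2 (exact Poisson 95% interval 4.33 to 7.74 CPM, counting error only), and WT MET 2 held 66 counts. The 2 RH MET libraries of round 1 were above the other 4 round 1 libraries, which stood at 8.26 to 11.5 CPM. For RH MET 1 the margin lay within counting error, as its interval was 10.91 to 14.03 CPM against 10.08 to 13.15 CPM in RH VEH 1.

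Gfi1 (chr5:107716657-107726036, minus strand), the repressor that granulocyte maturation requires, had 12.5, 17.7 and 21.8 CPM in RH MET and 10.4, 6.999 and 21.4 CPM in WT MET. It had 18.5, 7.29 and 18.8 CPM in RH VEH and 10.98, 10.6 and 20.2 CPM in WT VEH. Again replicate 3 was the highest of each group, and WT MET 2 and RH VEH 2 the lowest of all. Cebpa, Runx1 and Gfi1 each share 51 to 106 exon bases with a gene on the opposite strand. Those partners stood at 0.885 CPM or less, and the sources used here do not say how strand was handled.

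**Figure D2:**
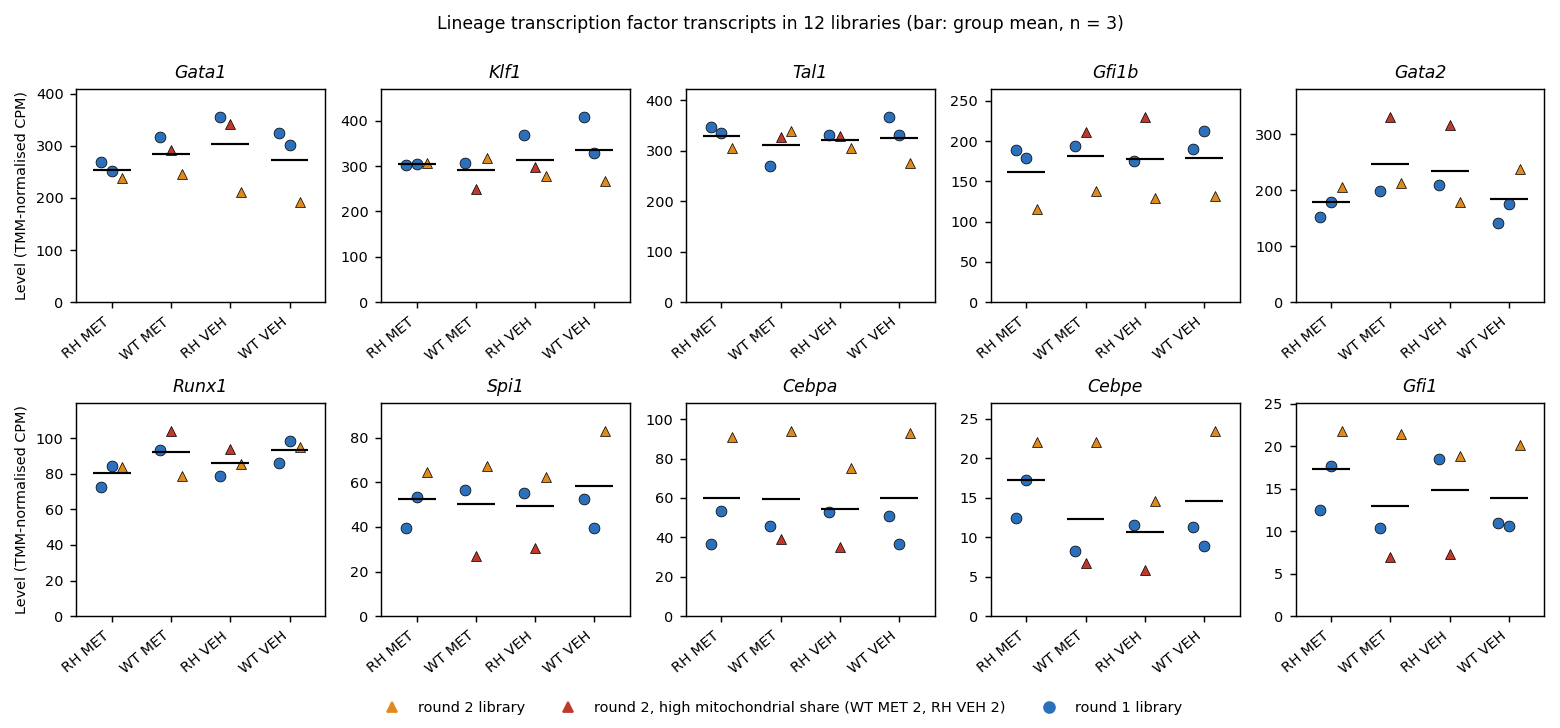
Level of each factor in TMM-normalised CPM (linear axes from 0, a scale per panel) in the 12 libraries, with 3 points per group and a bar at the group mean. Triangles are round 2 libraries, red for WT MET 2 and RH VEH 2, and circles are round 1; in Cebpa the 4 orange triangles lie at 75.3 to 94.1 CPM above all other points, and in Gfi1b at 116 to 138 CPM below them.

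Following the crossed design, genotype was compared under each treatment, metformin within each genotype, and the difference between the metformin effects. None of the 10 factors passed the threshold in any of these comparisons, nor in the mean genotype or mean metformin effect. The threshold was a Benjamini-Hochberg adjusted p under 0.05 over all 15003 genes (edgeR quasi-likelihood test with a round term). No factor reached an unadjusted p under 0.05 in these 7 comparisons with edgeR or with DESeq2, and DESeq2 called none. The smallest edgeR p, 0.0553 for Gata1 in the difference of the metformin effects, ranked 1065 of 15003 genes. Few genes of any kind were called. The share of all tested genes was 0% for RH VEH against WT VEH, 0.00667% for RH MET against WT MET, 0% for RH MET against RH VEH and 0% for WT MET against WT VEH. It was 0% for the difference of the metformin effects, 0.00667% for the mean genotype effect and 0% for the mean metformin effect. In all 6 comparisons of library ranges the groups overlapped for 10 of 10 factors. Among all tested genes, groups did not overlap for 5.95% in RH VEH against WT VEH, 16.9% in RH MET against WT MET, 6.92% in RH MET against RH VEH and 9.38% in WT MET against WT VEH. For all RH against all WT libraries that share was 0.0933%, and for all MET against all VEH libraries 0.0733%. The directions of the factors were divided as well. The fitted value was higher in 5 of 10 factors for RH VEH over WT VEH, against 50.3% of all genes, in 5 for RH MET over WT MET, against 48%, and in 5 for RH MET over RH VEH, against 49.3%. It was higher in 3 for WT MET over WT VEH, against 51.9%, in 6 for the difference of the metformin effects, against 48.3%, and in 4 for each mean effect, against 49.7% for genotype and 47.7% for metformin. Without WT MET 2 and RH VEH 2 no factor was called by edgeR either, against 0.0196% of all genes for RH VEH over WT VEH (0.0131% higher and 0.00653% lower) and for the mean genotype effect. The share was 0.00653% for RH MET over WT MET, for RH MET over RH VEH and for the difference of the metformin effects, and 0% for the others.

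**Figure D3:**
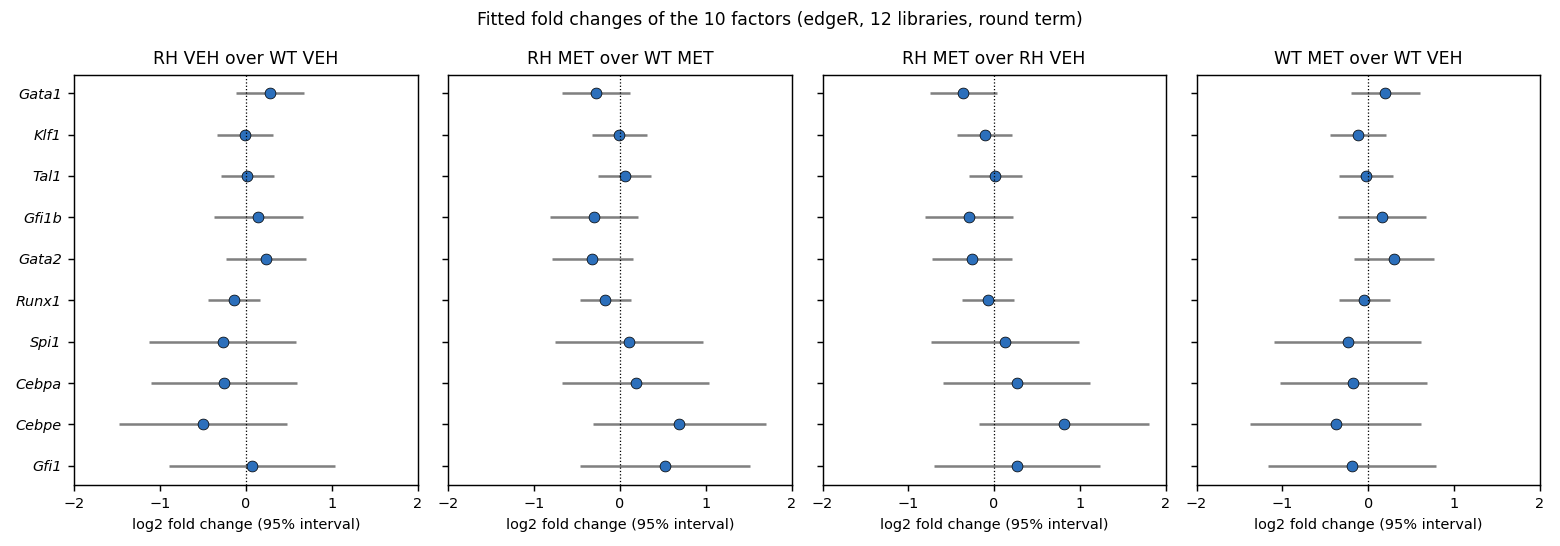
Fitted log2 fold change of each factor with its 95% interval in 4 comparisons, from the edgeR model of 12 libraries with a round term. Each of the 40 intervals crosses 0; they are narrow for Tal1, Klf1 and Runx1 and widest for Cebpe, which lies at 0.81 in RH MET over RH VEH.

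The fitted sizes show what these libraries could and could not resolve. Under vehicle, RH over WT, 4 of 10 factors had a log2 fold change larger than its SE, against 33% of all genes tested. Gata1 was at 0.28 ± 0.184 (SE; 95% interval -0.12 to 0.68), Gata2 at 0.24 ± 0.216, Runx1 at -0.14 ± 0.139 and Cebpe at -0.50 ± 0.447 (-1.48 to 0.48), each at an edgeR adjusted p of 0.977. With WT MET 2 and RH VEH 2 left out the values were 0.12 for Gata1, 0.06 for Gata2, -0.19 for Runx1 and -0.19 for Cebpe. Without WT VEH 3 alone, Gata1 was at 0.10 and Cebpe at -0.15. For Tal1 the interval ran from -0.30 to 0.32 and for Klf1 from -0.34 to 0.31.

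Under metformin, RH over WT, 6 of 10 factors were beyond their SE, against 42.6% of all genes. Gata1 was at -0.28 ± 0.181, Gata2 at -0.32 ± 0.219, Gfi1b at -0.31 ± 0.237 and Runx1 at -0.17 ± 0.138, while Gfi1 was at 0.52 ± 0.449 and Cebpe at 0.69 ± 0.459 (95% interval -0.32 to 1.70). Their edgeR adjusted p ran from 0.738 to 0.765. WT MET 2 moved with this comparison. Without it and RH VEH 2, Cebpe was at 0.45, Gfi1 at 0.29, Gata1 at -0.20, Gata2 at -0.16 and Gfi1b at -0.14.

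Within RH cells, metformin over vehicle, Gata1 was at -0.36 ± 0.181 (SE; 95% interval -0.75 to 0.03) and Cebpe at 0.81 ± 0.451 (-0.18 to 1.80). Gata2 was at -0.26 ± 0.217 and Gfi1b at -0.29 ± 0.238. These 4 of 10 were beyond their SE, against 35.6% of all genes, at an edgeR adjusted p of 0.932. Without WT MET 2 and RH VEH 2 the values were -0.19 for Gata1, 0.52 for Cebpe, -0.10 for Gata2 and -0.03 for Gfi1b. Within WT cells, metformin over vehicle, only Gata1 at 0.20 ± 0.184 and Gata2 at 0.30 ± 0.217 were beyond their SE, 2 of 10 factors against 38.2% of all genes (edgeR adjusted p of 0.876). With WT MET 2 and RH VEH 2 left out they were at 0.13 for Gata1 and 0.12 for Gata2, and without WT VEH 3 alone Gata1 was at 0.01. These 2 metformin comparisons share no library, but each shares a group with the genotype comparisons above.

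The difference of the metformin effects, RH minus WT, was beyond its SE in 4 of 10 factors, against 45.5% of all genes. It was -0.56 ± 0.266 for Gata1, -0.56 ± 0.315 for Gata2, -0.45 ± 0.351 for Gfi1b and 1.19 ± 0.648 for Cebpe, at edgeR adjusted p of 0.648 to 0.677. The intervals were wide, from -1.14 to 0.01 for Gata1 and from -0.23 to 2.62 for Cebpe. Without WT MET 2 and RH VEH 2 the difference was -0.32 for Gata1, -0.22 for Gata2, -0.01 for Gfi1b and 0.64 for Cebpe. As a mean of both treatments, RH over WT, Runx1 alone was beyond its SE, at -0.16 ± 0.0953 (95% interval -0.36 to 0.05), against 24.7% of all genes. As a mean of both genotypes, metformin over vehicle, only Klf1 was, at -0.11 ± 0.103 (-0.33 to 0.11), against 22.2% of all genes.

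The rounds were compared after these values had been seen. With all 12 libraries kept, Cebpa, Spi1, Cebpe, Gfi1 and Gfi1b each had both their lowest and their highest library in round 2. Without WT MET 2 and RH VEH 2, the 4 remaining libraries of round 2 differed from the 6 of round 1 in 6 of 10 factors, against 10.4% of the 15325 genes tested. Those 4 round 2 libraries are replicate 3 of each group, so round and replicate number cannot be told apart here. The myeloid factors were higher in round 2 and the erythroid factors Gata1 and Gfi1b lower. Counted by direction, 4 factors were higher, against 6.38% of all genes, and 2 were lower, against 4.01%. With all 12 libraries no factor was called by edgeR or by DESeq2, against 0.0467% of all genes by edgeR (0.0133% higher and 0.0333% lower). Both tools then put 3 factors (Gata1, Gata2 and Cebpa) under an unadjusted p of 0.05. By edgeR p they ranked 1101, 1348 and 1602 of 15003 genes, so p-values this small were common.

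Cebpa stood at 88.3 ± 8.77 CPM (SD, n = 4) in these round 2 libraries and at 45.9 ± 7.76 CPM (SD, n = 6) in round 1. Its log2 fold change was 0.95 ± 0.134 (SE) at an edgeR adjusted p of 0.00254, and the rounds did not overlap. Cebpe rose by 0.90 ± 0.176 (edgeR adjusted p of 0.00932), with 14.5 to 23.5 CPM in round 2 and 8.26 to 17.3 CPM in round 1, so its rounds overlapped through RH MET 2 and RH VEH 3. Gfi1 rose by 0.65 ± 0.159 (edgeR adjusted p of 0.0246), with 18.8 to 21.8 CPM in round 2 and 10.4 to 18.5 CPM in round 1. Spi1 rose by 0.49 ± 0.132 (edgeR adjusted p of 0.0362), with 62.5 to 83.2 CPM in round 2 and 39.5 to 56.8 CPM in round 1.

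On the erythroid side, Gfi1b stood at 129 ± 9.07 CPM (SD, n = 4) in round 2 and at 190.1 ± 12.9 CPM (SD, n = 6) in round 1. It fell by 0.56 on the log2 scale (SE 0.0875, edgeR adjusted p of 0.0038). Gata1 fell by 0.47 (SE 0.109, edgeR adjusted p of 0.0194), with 192.5 to 245.5 CPM in round 2 and 252 to 355.5 CPM in round 1. For Gata1 and Gfi1b, and for Cebpa, Spi1 and Gfi1 in the other direction, the rounds did not overlap. Such separation was found in 13.2% of all genes, 6.56% higher and 6.66% lower. Gata2 at 0.24, Klf1 at -0.19, Tal1 at -0.09 and Runx1 at 0.02 did not pass the threshold.

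The result rests on which libraries are kept. With all 12 libraries the fold changes were 0.68 ± 0.276 for Cebpa, 0.61 ± 0.326 for Cebpe, 0.35 ± 0.318 for Gfi1, 0.21 ± 0.276 for Spi1, -0.35 ± 0.133 for Gata1 and -0.35 ± 0.176 for Gfi1b. Leaving out WT MET 2 alone or RH VEH 2 alone also gave 0 of 10 factors called. Without the low-count filter, 12 libraries gave 2 factors, Cebpa and Cebpe, against 2.04% of 27530 genes.

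With WT MET 2 and RH VEH 2 left out, summed myeloid marker genes tended to be higher in round 2. The granulocyte sums and the mast and basophil sums overlapped between the rounds, and the monocyte sums did not. The summed level of 11 granulocyte markers was 5004 to 7398 CPM in the 4 round 2 libraries and 3482 to 5255 CPM in round 1. The 6 monocyte markers summed to 425 to 526 CPM in round 2 and 264 to 359 CPM in round 1. For 6 mast and basophil markers the sums were 1125 to 1834 CPM in round 2 and 762 to 1201 CPM in round 1. The 10 erythroid markers summed to 8626 to 13870 CPM in round 2 and 7882 to 13690 CPM in round 1, an overlap over most of the range. WT MET 2 and RH VEH 2, though round 2 libraries, held the lowest granulocyte sums (1487 and 1585 CPM) and monocyte sums (193.5 and 143 CPM), and the highest sums of 7 megakaryocyte markers (1883 and 1478 CPM), against 525 to 986 CPM in the other 10. The sum of stem cell markers overlapped between rounds (189 to 252 CPM in round 2 and 158 to 235 CPM in round 1). The sum of T and NK cell markers did not (80.1 to 90.8 CPM in round 2 and 40.3 to 79.5 CPM in round 1). Of the markers in these lists only Gp1bb was at 0 counts anywhere, in 5 libraries. The part of cell make-up in the difference between rounds was not tested.

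**Figure D4:**
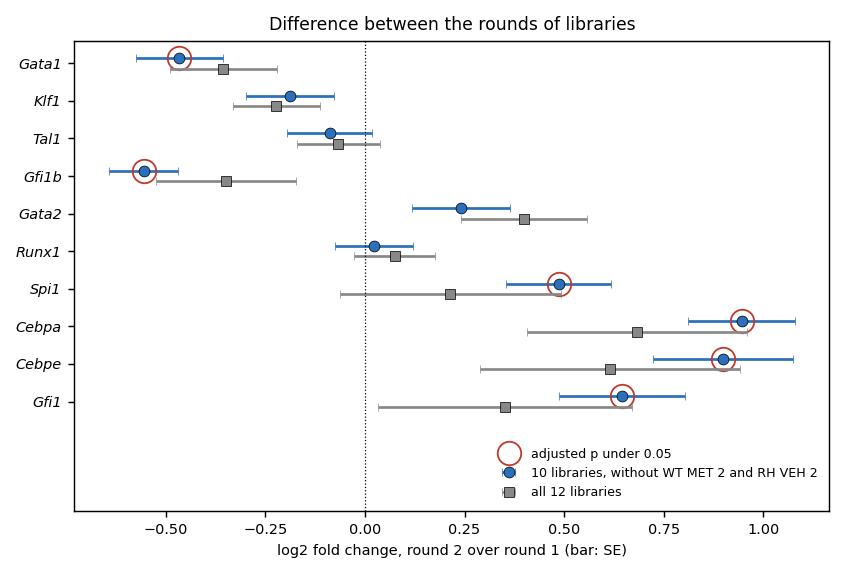
Log2 fold change of each factor, round 2 over round 1, with its SE; blue circles leave out WT MET 2 and RH VEH 2 (10 libraries), grey squares use all 12, and red rings mark an adjusted p under 0.05. The 6 ringed factors are Cebpa, Cebpe, Gfi1 and Spi1 to the right of 0 and Gata1 and Gfi1b to the left.

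Across the 12 libraries Gata1 and Gfi1b formed a set opposed to that of Spi1, Cebpa, Cebpe and Gfi1. Pearson's r of log2 CPM was 0.93 between Cebpe and Gfi1, 0.88 between Cebpa and Cebpe, 0.87 between Spi1 and Cebpa and 0.79 between Gata1 and Gfi1b. Between the sets it was -0.95 for Cebpa with Gfi1b, -0.88 for Gfi1 with Gfi1b, -0.82 for Spi1 with Gfi1b and -0.77 for Gata1 with Cebpe. The paralogues Gfi1 and Gfi1b ran opposite to each other, with Spearman's rho of -0.94. Klf1 followed neither set closely, with r of 0.55 with Gata1, 0.16 with Gfi1b, 0.16 with Spi1 and -0.09 with Cebpa. Tal1 had r of 0.36 with Gfi1b and -0.43 with Spi1, and Runx1 0.35 with Gfi1b and -0.57 with Gfi1. The 45 values, whose median was -0.15, are descriptions without a test, as all pairs share the same libraries, rounds and depth.

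For Cebpa with Gfi1b, whose promoters are printed above, r was -0.96 in the 6 libraries of round 2 and -0.72 in the 6 of round 1. For Gfi1 with Gfi1b it was -0.97 in round 2 and -0.83 in round 1. Gata1 and Gfi1b ran together in round 2 (0.87) but not in round 1 (-0.01). These round 2 values include WT MET 2 and RH VEH 2, which lie far from the other 4 libraries of that round. Those 4 lay close together, at 75.3 to 94.1 CPM of Cebpa, 18.8 to 21.8 CPM of Gfi1 and 116 to 138 CPM of Gfi1b, and WT MET 3 had the most Cebpa and the most Gfi1b among them. They are too few for a correlation of their own. Gata1 with Spi1, the textbook antagonists, had an r of -0.60 over 12 libraries and -0.90 in round 2, but 0.38 in round 1. This was not particular to Spi1. In round 1 the r of Gata1 was 0.27 with Cebpa and -0.10 with Gfi1, though -0.59 with Cebpe. Gata2 changed its company with the libraries kept. Its r with Spi1 was -0.39 over 12 libraries and 0.73 over the 10 without WT MET 2 and RH VEH 2, and its r with Gfi1 was -0.37 and 0.65.

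**Figure D5:**
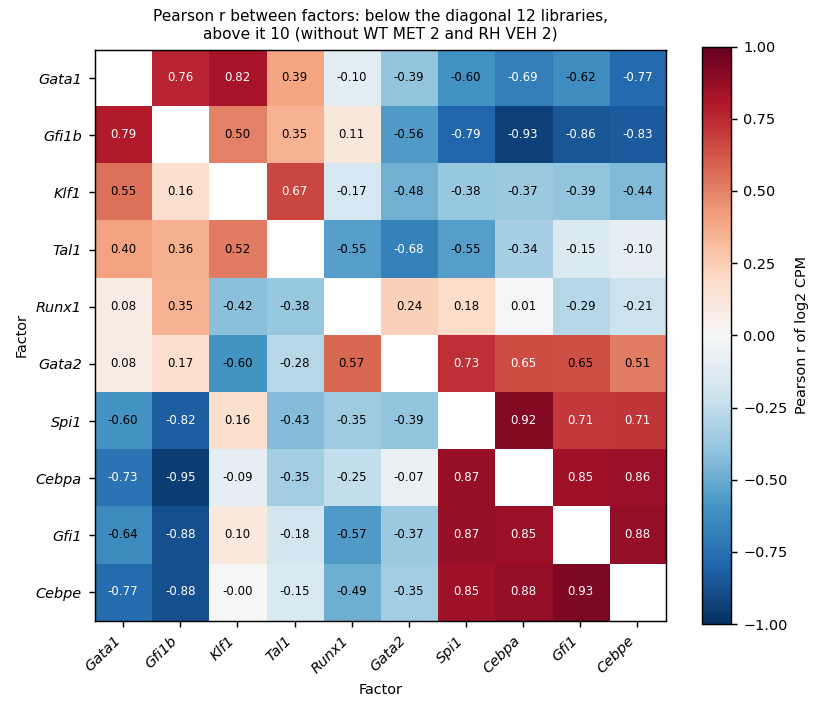
Pearson's r of log2 CPM for the 45 pairs of factors, below the diagonal over 12 libraries and above it over the 10 without WT MET 2 and RH VEH 2 (colour from blue at -1 to red at 1). Spi1, Cebpa, Gfi1 and Cebpe form a red block at the lower right, blue against Gfi1b and Gata1, and Gata2 differs across the diagonal, as with Spi1 at -0.39 below it and 0.73 above it.

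Ratios of factors that oppose or succeed each other were set per length, on a log2 scale. The ratio of Gata1 to Spi1 was 2.44 ± 0.451 (RH MET), 2.73 ± 0.787 (WT MET), 2.79 ± 0.863 (RH VEH) and 2.40 ± 0.918 (WT VEH) (SD, n = 3 each), so the groups overlapped. By library it was lowest in the 4 round 2 libraries of low mitochondrial share (1.36 to 2.02), intermediate in round 1 (2.38 to 3.08) and highest in WT MET 2 at 3.57 and RH VEH 2 at 3.63. The ratio of Gata1 to Gata2, which climbs as red cells mature, was 0.85 to 1.39 in round 2 and 1.64 to 2.36 in round 1, with all 12 libraries kept. That of Gfi1b to Gfi1 ran from 3.22 to 5.78. Among single genes the rounds did not overlap for 2.79% with 12 libraries, and Gata1 and Gata2 were not among them. Without WT MET 2 and RH VEH 2 that share was 13.2%, with Gata1 and Spi1 among them. None of these ratios was tested.

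The ratio of Cebpe to Cebpa, a late over an early granulocyte factor, was -0.47, -0.54 and -0.96 in RH MET. It was -1.38, -1.46 and -1.01 in WT MET, -1.11, -1.49 and -1.29 in RH VEH and -1.09, -0.97 and -0.90 in WT VEH. All 3 RH MET libraries lay above all 3 of WT MET and all 3 of RH VEH, but they overlapped WT VEH. This is 1 of 4 ratios computed, it was not tested, and both comparisons share the RH MET libraries. Among single genes, groups did not overlap for 16.9% in RH MET against WT MET and 6.92% in RH MET against RH VEH.

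For each factor, the 3 genes whose log2 CPM over 12 libraries was most like it were taken from 8681 expressed genes. Gata1 ran closest with Ywhah (r of 0.99), Tipin and Lsm2, Klf1 with Nudt4 (0.955), Uqcrc1 and Anapc7, Tal1 with Mrps5 (0.88), Sap30bp and Bud23, and Gfi1b with Polm (0.95), Ubqln4 and Tonsl. Gata2 ran closest with Card19 (0.93), Meis1 and Ampd2, and Runx1 with Tmem131l (0.87), Pdcd4 and Ptk2b. Among the myeloid factors, Spi1 ran with Pxylp1 (0.96), Adssl1 and Plac8, Cebpa with Anxa2 (0.97), Pkm and Xpc, Cebpe with Ikbkg (0.97), Ncf4 and Hp, and Gfi1 with Hk3 (0.96), Ms4a3 and Ctsg. Several of the last are neutrophil genes: Ctsg encodes the granule protease cathepsin G, Ncf4 a subunit of the phagocyte oxidase and Hp haptoglobin.

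Genes that these factors are known to control were described by lists. In the 7 genotype and metformin comparisons none of the listed genes was called (edgeR, adjusted p under 0.05), with 12 libraries or without WT MET 2 and RH VEH 2. The 19 genes listed as C/EBP-epsilon targets include granule genes and other neutrophil genes, and several are also granulocyte markers. Their fitted values had 1 sign in each of the 4 group comparisons with 12 libraries. In RH MET over WT MET all 19 were higher, with a median log2 fold change of 1.17 against -0.02 over all genes, and without WT MET 2 and RH VEH 2 the median was 0.78. In RH MET over RH VEH all 19 were also higher, with a median of 1.33 against -0.01 over all genes and of 0.97 without those libraries. The gene of smallest p was Retnlg, a resistin-like neutrophil gene, at 0.92 ± 0.342 over WT MET (edgeR adjusted p of 0.738) and 1.12 ± 0.344 over RH VEH (edgeR adjusted p of 0.932). In RH VEH over WT VEH the median was -0.73, and -0.36 without the 2 libraries; in WT MET over WT VEH it was -0.61, and -0.22 without them. The summed granulocyte markers ran from 4468 to 7001 CPM in RH MET, from 1487 to 5852 in WT MET, from 1585 to 5004 in RH VEH and from 3482 to 7398 in WT VEH; their part in these medians was not tested.

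The 26 myeloid targets of PU.1 and C/EBP-alpha had medians of 0.36 in RH MET over WT MET and 0.34 in RH MET over RH VEH, but of 0.07 and 0.06 without WT MET 2 and RH VEH 2. The 29 tested erythroid targets of GATA1, TAL1 and KLF1 had medians of -0.19 in RH MET over WT MET and -0.14 in RH MET over RH VEH, with Hba-a1, an alpha globin gene, at -0.83 ± 0.355 and -0.60 ± 0.348 in these comparisons. Both medians kept their sign without the 2 libraries, at -0.15 and -0.16. The 17 tested megakaryocyte targets had a median of 0.80 in WT MET over WT VEH, led by Fli1 at 0.50 ± 0.160 and the platelet chemokine gene Pf4 at 1.28 ± 0.440 (edgeR adjusted p of 0.876 for both), and of 0.36 without the 2 libraries. In RH MET over WT MET it was -0.67, and -0.24 without them. Cell type markers moved with these lists. In RH MET over WT MET, 9 of 10 erythroid markers were lower (median -0.26, and -0.40 without the 2 libraries), 6 of 6 tested megakaryocyte markers were lower (-0.71, and -0.26 without them) and 6 of 6 T and NK cell markers were lower (-1.09, and -0.90 without them). In that comparison 11 of 11 granulocyte markers (0.92, and 0.62 without them) and 5 of 6 monocyte markers (0.32, and 0.11 without them) were higher. Of the stem cell markers, 4 of 6 were lower (-0.70, and -0.40 without them). Among all genes, 48% were higher in RH MET over WT MET. In WT MET over WT VEH, 6 of 6 tested megakaryocyte markers were higher (0.88, and 0.40 without them), against 51.9% of all genes. The summed megakaryocyte markers ran from 698 to 734 CPM in RH MET, from 711 to 1883 in WT MET, from 657 to 1478 in RH VEH and from 525 to 703 in WT VEH. Several of these markers are also in the target lists, and their part in the list medians was not tested.

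In the comparison of rounds without WT MET 2 and RH VEH 2, the targets are read against the 6.38% of all genes that were called higher and the 4.01% called lower. Of 26 myeloid targets 20 rose in round 2 and none fell, with a median of 0.62 against 0.00 over all genes. Emb at 0.73, the monocyte chemokine receptor gene Ccr2 at 0.68 and the phagocyte oxidase gene Ncf1 at 0.66 had the smallest p. Of the 19 genes listed as C/EBP-epsilon targets 15 rose and none fell, with a median of 0.99. S100a9 was at 1.24 ± 0.150 and the lysozyme gene Lyz2 at 1.17 ± 0.147. The neutrophil chemokine receptor gene Cxcr2, not a granule gene, was at 1.38 ± 0.196. The edgeR adjusted p of these 3 genes ran from 0.0012 to 0.00239. Of 10 tested mast and basophil targets of GATA2, 3 rose (Ms4a2, Cpa3 and Fcer1a) and 1 fell. Of 29 erythroid targets none rose and 2 fell, Rhag by 0.39 and the haem synthesis gene Alad by 0.56, a share near that of all genes. Of 17 megakaryocyte targets 1 rose, Fli1 by 0.50, and 2 fell, Alox12 by 1.05 and Gp1ba by 0.75. Among 18 genes repressed by GFI1 or GFI1B, 4 rose and 2 fell; that list includes Gfi1 and Gfi1b themselves, and Csf1r, the receptor gene of the monocyte growth factor, rose by 0.62.

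Among 18 cofactors, Cbfb, the partner subunit of RUNX1, rose by 0.81 ± 0.101 in round 2 (edgeR adjusted p of 0.0012), while Zfpm1, which encodes the GATA1 partner FOG1, fell by 0.42 and Ssbp3, of the LDB1 complex, fell by 0.38. Of 40 other lineage factors, 4 rose and 2 fell between these rounds, shares near those of all genes (6.38% and 4.01%), among them Erg up by 0.68, Ikzf3 up by 0.74 and Nfia down by 0.72 (log2). In the mean genotype effect none of the 40 passed the threshold. The fitted value was lower in RH than in WT cells for 37 of them, with a median of -0.20 against 0.00 over all genes, of which 49.7% were higher. These genes share the same libraries, so the count of signs is a description and was not tested. Without WT MET 2 and RH VEH 2, 35 of 40 were lower with a median of -0.11. Those of smallest p were the interferon-regulated factor Irf1 at -0.59 ± 0.132 (edgeR adjusted p of 0.677), the T lineage factor Bcl11b at -0.83 ± 0.337 and the stem cell factor Hlf at -0.41 ± 0.172 (0.9999 for both). The 10 lineage factors described above had 6 lower and 4 higher in that comparison, with a median of -0.02. Markers lower there were 6 of 6 for T and NK cells, 5 of 6 for B cells, 8 of 10 erythroid, 4 of 6 megakaryocyte and 4 of 6 stem cell. Markers higher there were 10 of 11 granulocyte, 5 of 6 mast and basophil and 4 of 6 monocyte. The part of cell make-up in these signs was not tested.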

How the data were processed

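Libraries were made with NEBNext Ultra kits from RNeasy Plus RNA and sequenced as paired reads of 150 bases on a NovaSeq instrument, per the labels' protocols. The submitters' processing notes name STAR 2.5, HTSeq 0.6.1 and mm10. The authors deposited whole-number counts per gene in a table of 12 libraries and one of 8 columns; 2 columns of the smaller table match no sample and were not used. For some columns the name gives the group but not which sample, so library numbers here are those of the columns. These numbers can differ from those in the sample titles. The smaller table has a column for the sample titled RH VEH-2, and the counts of RH VEH 2 here differ from it. RH VEH 2 here, a round 2 library, is therefore not that sample.

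Genes were filtered with filterByExpr (minimum count 10), scaled by TMM and tested with edgeR 4.0.16 (quasi-likelihood, robust, R 4.3.3) on group plus round, over 12 libraries; Benjamini-Hochberg adjustment covered all genes tested. The biological coefficient of variation was 0.256. The script was checked on simulated counts. CPM in the text are TMM-normalised; log2 CPM used a prior count of 2. The alternatives were DESeq2 1.42.0, other size factors, no filter, no round term, a replicate block, mitochondrial genes left out, each round alone and each library left out.

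The factors and gene lists were chosen with earlier results of these data known. Fold changes with an SE are given for factors beyond their SE, and for list genes that were called or had the 3 smallest p; the genes most like a factor are the 3 of highest r among genes whose log2 CPM averaged 3 or more. Replicates of a group differed by more than counting noise.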

Additional observations from a re-analysis of the deposited data

Results flagged for a closer look

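The metformin effect on Gata2 pointed opposite ways in the 2 genotypes. Every RH MET library (152 to 206 CPM) lay below the RH VEH mean of 234 CPM, and every WT MET library (199 to 330.5 CPM) lay above the WT VEH mean of 184 CPM. The difference of the metformin effects, RH minus WT, was -0.56 on the log2 scale and did not pass the threshold (edgeR adjusted p of 0.648). Without WT MET 2 and RH VEH 2, the libraries of high mitochondrial share, it was -0.22. The pattern by library rests on RH VEH 2, at 315 CPM: the other RH VEH libraries were at 208.5 and 179 CPM, and RH MET 3, at 206 CPM, lay between them.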

How the results depend on the processing

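No factor was called in any of the 7 genotype and metformin comparisons under any alternative run. Leaving out each library in turn kept the sign of 264 of 264 values, which were beyond their SE to begin with and none called, and of 84 of 84 values between rounds. Sizes moved: Gata1 in WT MET over WT VEH ran from 0.01 to 0.28, Gfi1b in RH MET over RH VEH from -0.49 to -0.02 and Cebpe in RH VEH over WT VEH from -0.96 to -0.15. Other alternatives kept 194 of 198 values and reversed 4, none of them called: with round 1 libraries only, Cebpe in RH VEH over WT VEH was 0.19, Gfi1b in RH MET over RH VEH 0.065 and Gfi1b in the difference of the metformin effects 0.13; with round 2 libraries only, Klf1 in the mean metformin effect was 0.083. Between rounds, 0 factors were called with 12 libraries, 2 without the low-count filter and 6 without WT MET 2 and RH VEH 2. The cause of these changes was not tested. With the replicate number as a block in place of the round term, 0 factors were called, and 2 genes of any kind in RH VEH over WT VEH, 1 in RH MET over WT MET and 1 in the mean genotype effect. The numbers were not taken as pairs, since not every same-numbered pair had deviations correlated over 0.1 (14 of 18 did, r of -0.0143 to 0.489) and the labels tie a number to no animal. Still, 10 of 12 libraries correlated best with one of their own number, a hint from the data and not the design. All libraries numbered 1 are of round 1 and all numbered 3 of round 2, so number and round cannot be told apart for these. RH MET 1 and WT VEH 2, both of round 1, correlated best with each other (r of 0.195). WT MET 2 and RH VEH 2, the libraries of high mitochondrial share, also did (r of 0.366). Over all genes, edgeR called 0 or 1 of 15003 in these comparisons and DESeq2 0 to 22, and without the filter edgeR called 63 to 431 of 27530. Depth limits Cebpe and Gfi1 most, at 49 and 61 counts in RH VEH 2.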
